A study of Mus musculus with 12 samples.

Results

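The enzymes that turn arachidonic acid into prostaglandins, thromboxane and leukotrienes were followed in dendritic cells (DCs) of the mouse small intestine by RNA-seq. They were 10 listed genes, which are 10 of the 53801 gene identifiers in the count files, and all 10 were among the 20580 genes tested. The prostanoid enzymes were Ptgs1, Ptgs2, Ptges, Hpgds and Tbxas1, and the leukotriene enzymes were Alox5, Alox5ap, Lta4h, Ltc4s and Cyp4f18. The genes were chosen by function with earlier results of these libraries in view, and Ptgs1 and Cyp4f18 were known beforehand to differ between the genotypes in CD103+CD11b- DCs. For that comparison, and for the difference between the 2 genotype effects, values of the 10 genes are therefore given as a description with no p value. Where calls are counted there, they are set beside the share of all genes called and nothing is read from them.

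Libraries were made from CD103+CD11b- DCs and CD103-CD11b+ DCs that were sorted by flow cytometry from mice labelled wild type (WT) or Cbfb-cKO, with 3 libraries in each of the 4 groups and 12 in all. Cbfb encodes the non-DNA-binding partner of the Runx transcription factors. In the mutant mice both floxed Cbfb alleles are deleted by Cre under the CD11c promoter (Cbfb F/F: CD11c-Cre), a transgene that the study also found active in some T cells, so that the deletion is not restricted to DCs. All mice were of a mixed background. It is not stated in the sources used here whether the control mice of the RNA-seq carried the Cre transgene, and no age is tied to the RNA-seq animals. The 3 samples of a group came from different mice. Each library came from a small number of sorted cells, amplified by a method made for single cells.

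Prostanoids and leukotrienes are short-lived lipid mediators made from arachidonic acid, which phospholipases release from membranes. The cyclooxygenases, the constitutive PTGS1 (COX-1) and the inducible PTGS2 (COX-2), make prostaglandin H2, and terminal synthases convert it to prostaglandin E2, prostaglandin D2 or thromboxane. 5-lipoxygenase, with its helper protein FLAP, makes leukotriene A4, which becomes either the chemoattractant leukotriene B4 or the cysteinyl leukotrienes. In the gut these lipids act on epithelium, blood vessels and immune cells, and prostaglandin E2 is known to act on DC migration and cytokine production.

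The 250 bases before the transcription start of 9 of the genes were taken from RefSeq (GRCm38.p6), and Alox5ap had no entry. Windows of 3 genes are shown 5′ to 3′ in the sense of the gene, because Ptgs1 and Cyp4f18 had the widest gaps between the genotypes and Ptgs2 held the motifs bound by Runx proteins. Capitals mark TGTGGT or TGCGGT (Runx) and GAGGAAGT (PU.1, an ETS-family factor of myeloid cells), searched on both strands. The window of Ptgs1 is chr2:36230176-36230425 on the plus strand, that of Ptgs2 is chr1:150099781-150100030 on the plus strand, and that of Cyp4f18 is chr8:72009627-72009876 on the minus strand.
Ptgs1: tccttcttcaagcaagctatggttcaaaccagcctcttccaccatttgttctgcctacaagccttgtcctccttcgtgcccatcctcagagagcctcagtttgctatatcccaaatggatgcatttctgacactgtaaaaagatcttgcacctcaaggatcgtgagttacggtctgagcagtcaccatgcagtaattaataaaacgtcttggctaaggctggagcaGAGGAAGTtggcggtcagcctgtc
Ptgs2: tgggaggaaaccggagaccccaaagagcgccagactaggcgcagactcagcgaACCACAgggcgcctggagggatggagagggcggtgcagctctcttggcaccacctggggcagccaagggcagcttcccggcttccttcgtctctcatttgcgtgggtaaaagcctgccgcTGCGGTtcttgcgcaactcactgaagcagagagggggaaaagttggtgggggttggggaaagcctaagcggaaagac
Cyp4f18: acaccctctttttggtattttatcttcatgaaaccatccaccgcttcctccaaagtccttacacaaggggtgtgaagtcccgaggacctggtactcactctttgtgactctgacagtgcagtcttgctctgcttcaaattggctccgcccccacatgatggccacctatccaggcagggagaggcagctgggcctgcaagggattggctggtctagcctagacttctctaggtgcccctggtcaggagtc
TGTGGT occurred in 14.0% of the windows of the same length of all 32851 RefSeq promoters, TGCGGT in 5.1% and GAGGAAGT in 2.4%. Among the 9 genes, TGTGGT was present before Ptgs2, Hpgds and Ltc4s, TGCGGT before Ptgs2, and GAGGAAGT before Ptgs1 and Hpgds. No match to the 3 motifs was present in the window of Cyp4f18. A match describes the letters of the window and does not show that a factor binds there.

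Counts on genes ranged from 2161929 to 5863484 per library, and 3 counts correspond to between 0.485 and 1.53 CPM (counts scaled to the size of the library). Values below about this level rest on few reads. CPM were computed with edgeR from the deposited counts, scaled by TMM factors, and a gene was called when edgeR's quasi-likelihood test gave a Benjamini-Hochberg adjusted p (FDR) under 0.05 with a fold change over 1.3. Ranges of 3 libraries per group that do not overlap are given as a description and are not a call. The share of all genes without overlap was not computed. The subset labels were compared with marker genes. The summed level of 8 genes typical of type 1 DCs (among them Xcr1 and Clec9a) was 4871 to 8057 CPM over both genotypes in CD103+CD11b- DCs and 1958 to 3375 CPM in CD103-CD11b+ DCs. Itgam, which encodes CD11b, was at 3.66 to 11 CPM in the former and at 77.9 to 222 CPM in the latter. Counts over the whole Cbfb gene overlapped between the 2 genotypes in both subsets and do not check the genotype labels. In bulk RNA, fewer cells of a type and less RNA per cell cannot be told apart, and this holds for every value below.

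**Figure D1:**
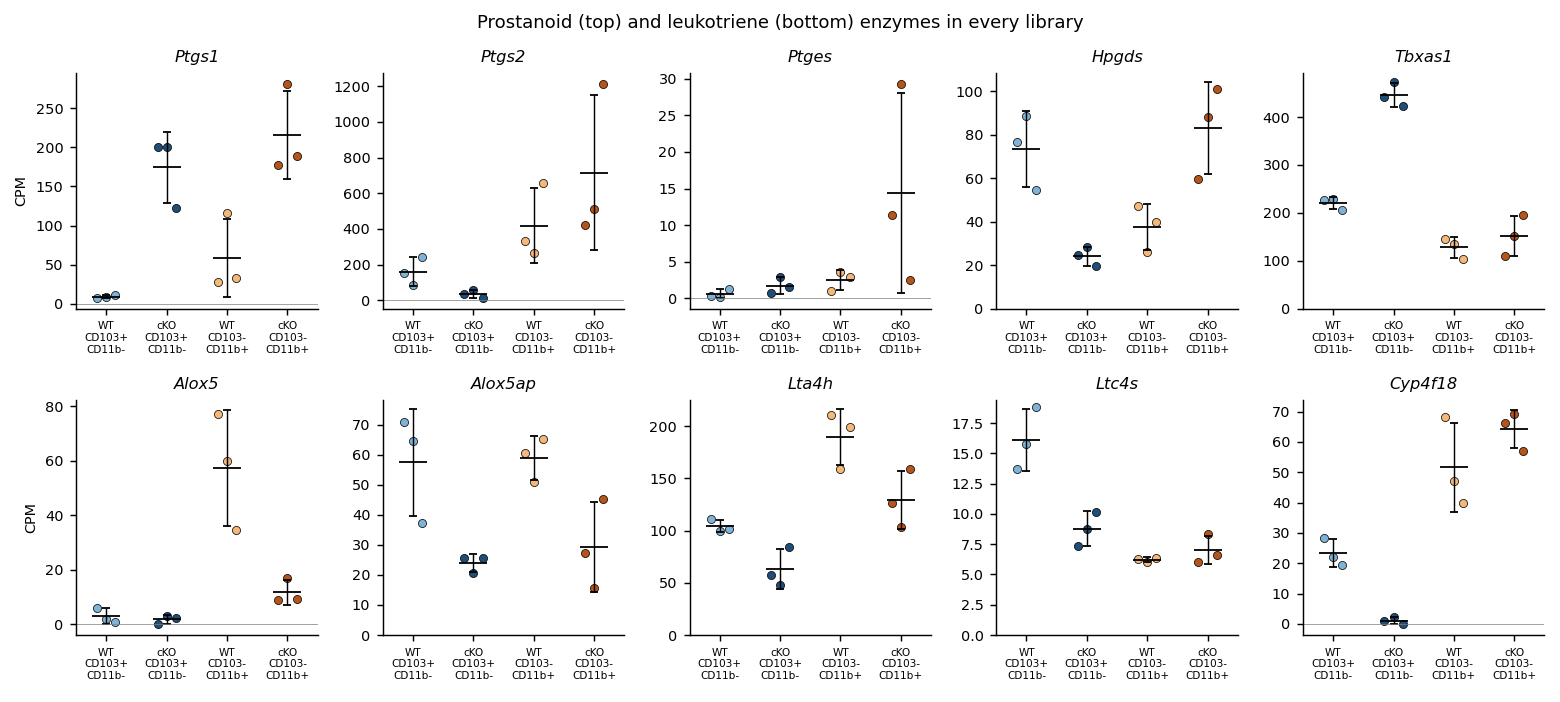
CPM (y axis, linear, different for each panel) of the 5 prostanoid enzymes (top) and the 5 leukotriene enzymes (bottom) in the 4 groups (x axis), with 1 point per library and the mean ± SD of 3 libraries in black. Ptgs1 was below 12 CPM only in WT CD103+CD11b- DCs, and Cyp4f18 was below 3 CPM only in Cbfb-cKO CD103+CD11b- DCs.

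The first question was which enzymes differed between Cbfb-cKO and WT CD103+CD11b- DCs. Ptgs1 and Tbxas1 were called higher, and Hpgds and Cyp4f18 were called lower, that is 2 of 10 genes in each direction. Of all genes tested, 0.224% were called higher and 0.797% lower in this comparison. DESeq2 called Ptgs2 and Alox5ap lower as well, against 1.31% of genes called higher and 2.64% lower by that tool. Nothing is read from the counts, since this comparison was known when the genes were listed. The median log2 fold change was -0.81 for the 10 genes and -0.017 for all genes tested.

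Ptgs1, the constitutive cyclooxygenase (ENSMUSG00000047250), lies on the plus strand of chromosome 2 of GRCm38 between 36230426 and 36252272. Its levels were 7.52, 9.15 and 11 CPM in the WT CD103+CD11b- libraries and 200, 201 and 122 CPM in the Cbfb-cKO libraries. Every mutant library was thus above every WT library, and the lowest mutant value was over 10 times the highest WT value. The log2 fold change was 4.21 ± 0.54 (SE, n = 3 per group), which is 18.6-fold. It ranged from 4.10 to 4.42 when 1 of the 6 libraries was left out.

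Ptgs2, the inducible cyclooxygenase (ENSMUSG00000032487), was at 153, 83.1 and 245 CPM in WT and at 35.9, 56.1 and 12.5 CPM in Cbfb-cKO CD103+CD11b- DCs. The 2 cyclooxygenases therefore lay in opposite directions in this subset. The ranges of Ptgs2 did not overlap, but the gene was not called by edgeR, with a log2 fold change of -2.18 ± 0.61 (SE, n = 3 per group). Per kb of exon, which allows levels of different genes to be compared, Ptgs1 was at 2.37 ± 0.447 CPM per kb (SD, n = 3) and Ptgs2 at 35.0 ± 17.7 in WT, against 44.8 ± 11.7 and 7.61 ± 4.77 in Cbfb-cKO.

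Among the terminal prostanoid synthases, Tbxas1 (ENSMUSG00000029925), the thromboxane synthase, was at 227, 228 and 206 CPM in WT and at 442, 473 and 423 CPM in Cbfb-cKO CD103+CD11b- DCs. The replicates were close together and all mutant values were above all WT values, with a log2 fold change of 1.02 ± 0.19 (SE, n = 3 per group). Tbxas1 was no longer called when any 1 of the 6 libraries was left out, although the log2 fold change stayed between 0.97 and 1.06. Hpgds (ENSMUSG00000029919), the haematopoietic prostaglandin D2 synthase, was at 76.6, 88.8 and 54.6 CPM in WT and at 24.6, 28.3 and 19.6 CPM in Cbfb-cKO. All mutant values were below all WT values, and the log2 fold change was -1.59 ± 0.27 (SE, n = 3 per group). The call of Hpgds was kept only in the fit without replicate 3 of the WT libraries, among the 6 fits that left out 1 library, in which the log2 fold change ranged from -1.77 to -1.41. Ptges (ENSMUSG00000050737), the inducible microsomal prostaglandin E synthase, was near the detection limit, with at most 1.29 CPM in WT and 2.93 CPM in Cbfb-cKO, and the groups overlapped.

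Cyp4f18 (ENSMUSG00000003484), a cytochrome P450 that oxidizes leukotriene B4, lies on the minus strand of chromosome 8 of GRCm38 between 71988482 and 72009626. In CD103+CD11b- DCs it was at 28.4, 22.2 and 19.4 CPM in WT and at 0.888, 2.44 and 0 CPM in Cbfb-cKO. These mutant values rest on 4, 10 and 0 counts. The log2 fold change was -4.21 ± 0.51 (SE, n = 3 per group), and it was -5.33 without replicate 2 of the Cbfb-cKO libraries, which had the highest of the mutant values. Cyp4f18 belongs to a family of similar genes, and the authors removed reads of low mapping quality. It shares 9.76% of its exonic bases with Zfp961 on the opposite strand, and reads were counted without strand.

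The other leukotriene enzymes were each lower in the mutant CD103+CD11b- libraries on average, and none of them was called by the main edgeR fit. Lta4h and Alox5ap met the limits of a call in alternative fits that kept all replicates. Alox5ap (ENSMUSG00000060063), which encodes FLAP, was at 70.8, 64.5 and 37.2 CPM in WT and at 25.5, 20.5 and 25.8 CPM in Cbfb-cKO. Lta4h (ENSMUSG00000015889), the hydrolase that makes leukotriene B4, was at 111, 99.8 and 102 CPM in WT and at 57.7, 47.8 and 84.5 CPM in Cbfb-cKO. Ltc4s (ENSMUSG00000020377), the synthase of leukotriene C4, was at 13.7, 15.8 and 18.8 CPM in WT and at 7.32, 8.79 and 10.2 CPM in Cbfb-cKO. The ranges did not overlap for any of these 3 genes, with log2 fold changes of -1.26 ± 0.34, -0.73 ± 0.21 and -0.88 ± 0.24 (SE, n = 3 per group). Alox5 (ENSMUSG00000025701), the 5-lipoxygenase itself, was at 6.15 CPM or less in all 6 libraries and overlapped between the genotypes. Its direction was not defined, since the log2 fold change of -0.63 ± 0.92 (SE, n = 3 per group) became 0.35 without replicate 1 of the WT libraries and 0.02 without replicate 1 of the Cbfb-cKO libraries.

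Several markers of another DC type, though not all, moved along with these values. The summed level of 8 genes typical of type 2 DCs was 529 to 710 CPM in WT and 190 to 294 CPM in Cbfb-cKO CD103+CD11b- DCs, and 4 of the 8 (Sirpa, Irf4, Cd209a and Clec4a4) were called lower while none was called higher. Itgam, 1 of the 8, lay in the other direction without overlap, at 3.66 to 4.79 CPM in WT and 5.99 to 11 CPM in Cbfb-cKO. Klf4 overlapped between the genotypes. In the same libraries, 8 type 1 DC genes summed to 4871 to 7144 CPM in WT and 6398 to 8057 CPM in Cbfb-cKO, and none of them was called. The part of the type 2 DC genes in the lower levels of Cyp4f18, Ptgs2 and Hpgds was not tested. Ptgs1 and Tbxas1, which are also known from platelets, were in the other direction, and 6 platelet genes summed to 42.0 to 64.3 CPM in WT and 32.9 to 44.9 CPM in Cbfb-cKO with none called. Sums of 6 monocyte genes were 157 to 453 CPM in WT and 56.3 to 157 CPM in Cbfb-cKO, with none called. Those of 10 epithelial genes were 123 to 277 CPM and 25.8 to 129 CPM, through Epcam, which was called lower, and Cdh1, while the median log2 fold change of the 10 was 0.69. Other sums were higher in Cbfb-cKO without overlap, at 12.7 to 16.9 CPM in WT and 19.9 to 41.2 CPM in Cbfb-cKO for 7 eosinophil genes and at 10.3 to 11.2 and 12.1 to 16.2 CPM for 9 tuft cell genes, with none called in either list. The part of all these lists in the enzyme levels was not tested.

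**Figure D2:**
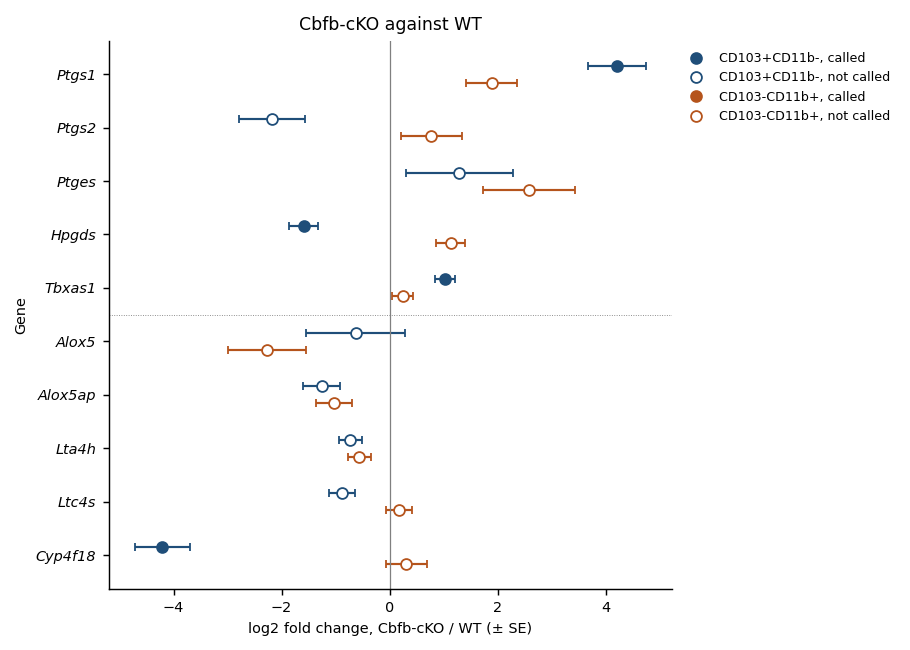
Log2 fold change of Cbfb-cKO over WT (x axis, ± SE) of each gene (y axis, prostanoid enzymes above the dotted line) in CD103+CD11b- DCs (blue) and CD103-CD11b+ DCs (brown), with filled points for called genes. The 4 called values, all in CD103+CD11b- DCs, are those of Ptgs1, Hpgds, Tbxas1 and Cyp4f18, and no gene was called in CD103-CD11b+ DCs.

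In CD103-CD11b+ DCs, none of the 10 genes was called between Cbfb-cKO and WT by edgeR's quasi-likelihood test. Of all genes tested, 1.11% were called higher and 0.5% lower. At an unadjusted p under 0.05 there were 3 genes higher (Ptgs1, Ptges and Hpgds) and 3 lower (Alox5, Alox5ap and Lta4h), against 8.29% and 9.15% of all genes tested. DESeq2 called 3 genes, Ptgs1 and Hpgds higher and Alox5 lower, against 4.09% and 2.96% of the genes for which it gave an adjusted p. The median log2 fold change was 0.28 for the 10 genes and -0.061 for all genes tested. These libraries took no part in the comparison in which Ptgs1 and Cyp4f18 had been found, but the list was drawn up with their results known, so the adjusted p values are not independent support.

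Ptgs1 was at 27.4, 116 and 32.9 CPM in WT and at 178, 281 and 189 CPM in Cbfb-cKO CD103-CD11b+ DCs. The groups did not overlap, yet replicate 2 of the WT libraries was well above the other two. The log2 fold change was 1.89 ± 0.47 (SE, n = 3 per group), with an edgeR adjusted p of 0.0721. Without WT replicate 2 it was 2.85 with an adjusted p of 0.00272, and over the other alternative fits the adjusted p ranged from 0.00356 to 0.233. The summed level of 12 macrophage genes was 894, 1162 and 796 CPM in the 3 WT libraries and 896 to 1183 CPM in the mutant libraries, with Adgre1 called higher. Of the DC genes, Clec4a4 was called higher and Itgae, which encodes CD103, was called lower in the mutant. Other lists did not overlap between the genotypes in this subset. The sums in WT and Cbfb-cKO were 293 to 475 and 516 to 975 CPM for 10 B-cell genes (Ms4a1 called higher), 54.7 to 69.6 and 105 to 167 CPM for 10 neutrophil genes (Csf3r called higher), 15.1 to 39.0 and 51.5 to 83.0 CPM for 7 eosinophil genes (none called), and 224 to 402 and 63.3 to 113 CPM for 10 epithelial genes (none called). The neutrophil sums differed mainly through Csf3r, at 36.4 to 42.3 CPM in WT and 84.6 to 134 CPM in Cbfb-cKO. The median log2 fold change of the 7 neutrophil genes tested was 0.08. The part of all these marker genes in the values of the enzymes was not tested.

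Hpgds was at 47.0, 26.3 and 39.8 CPM in WT and at 59.7, 88.0 and 101 CPM in Cbfb-cKO CD103-CD11b+ DCs. Here all mutant values were above the WT values, which is the opposite of the order in CD103+CD11b- DCs. The log2 fold change was 1.13 ± 0.27 (SE, n = 3 per group), with an edgeR adjusted p of 0.0624 and a range from 0.00432 to 0.217 over the alternatives that kept all replicates. Ptges was at 0.979, 3.66 and 2.91 CPM in WT and at 11.4, 29.3 and 2.55 CPM in Cbfb-cKO, and replicate 3 of the mutant libraries lay within the WT range (log2 fold change 2.57 ± 0.85, edgeR adjusted p 0.154, and 1.58 without Cbfb-cKO replicate 2). Ptgs2 was high in both genotypes and varied widely, from 265 to 659 CPM in WT and from 423 to 1213 CPM in Cbfb-cKO (log2 fold change 0.77 ± 0.57, and 0.16 without Cbfb-cKO replicate 3). Tbxas1 also overlapped, at 145, 136 and 104 CPM in WT and at 110, 151 and 195 CPM in Cbfb-cKO, with a log2 fold change of 0.24 ± 0.19 (SE, n = 3 per group; edgeR adjusted p 0.541).

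Alox5 was at 76.9, 60.0 and 34.6 CPM in WT and at 8.98, 17.1 and 9.18 CPM in Cbfb-cKO CD103-CD11b+ DCs. All mutant values were below all WT values. The log2 fold change was -2.27 ± 0.73 (SE, n = 3 per group), with an edgeR adjusted p of 0.144, and DESeq2 gave 0.0493. The 6 monocyte genes summed to 248 to 306 CPM in WT and 135 to 172 CPM in Cbfb-cKO, with none called, and their part in the level of Alox5 was not tested. Alox5ap was at 60.5, 51.0 and 65.4 CPM in WT and at 27.2, 15.7 and 45.4 CPM in Cbfb-cKO. Lta4h was at 211, 159 and 199 CPM in WT and at 126, 103 and 159 CPM in Cbfb-cKO, with replicate 3 of the mutant libraries close to WT replicate 2. Both were thus lower on average in the mutant, without overlap, by log2 fold changes of -1.03 ± 0.34 and -0.56 ± 0.21 (SE, n = 3 per group; edgeR adjusted p 0.151 and 0.204).

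Ltc4s differed little in this subset, with 6 to 6.40 CPM in WT and 6.06 to 8.33 CPM in Cbfb-cKO. Cyp4f18 was at 68.1, 47.0 and 39.8 CPM in WT and at 66.2, 69.2 and 57.1 CPM in Cbfb-cKO. Its ranges overlapped, with a log2 fold change of 0.31 ± 0.38 (SE, n = 3 per group; edgeR adjusted p 0.706).

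The genotype effects were then set against each other across the subsets, as a description. The difference (effect in CD103-CD11b+ minus effect in CD103+CD11b- DCs, on the log2 scale) was 4.53 ± 0.64 for Cyp4f18 and 2.72 ± 0.38 for Hpgds (SE, 12 libraries), and both met the limits of a call. No gene of the 10 was called lower. Of all genes tested, 0.554% were called higher and 0.0972% lower in this difference. Both calls were lost without replicate 1 of the Cbfb-cKO CD103+CD11b- libraries, where the differences were 4.32 and 2.73, and that of Cyp4f18 was 5.64 without replicate 2 of the same group. For Ptgs2 the difference was 2.95 ± 0.83 and for Ptgs1 it was -2.33 ± 0.68, neither of which was called. Without WT CD103-CD11b+ replicate 2 the difference of Ptgs1 was -1.37, and over all fits that left out 1 library that of Ptgs2 ranged from 2.34 to 3.46.

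The next comparison asked how the 2 subsets differ in WT mice. The WT CD103+CD11b- libraries are shared with the comparison in which Ptgs1 and Cyp4f18 were found. These 2 genes are therefore described here and in the mutant without a p and are not counted. The remaining genes, Hpgds among them, were also listed with earlier results of these libraries known. Their calls and adjusted p values between the subsets are therefore not independent support. Of the other 8 genes, Alox5 and Lta4h were called higher and Hpgds, Tbxas1 and Ltc4s were called lower in CD103-CD11b+ DCs, that is 2 and 3 of 8. Of all genes tested, 11.8% were called higher and 7% lower in this comparison. The median log2 fold change was 0.45 for the 8 genes and 0.066 for all genes tested.

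Alox5 showed the widest gap of the genes in WT mice, rising from 0.808 to 6.15 CPM in CD103+CD11b- DCs to 34.6 to 76.9 CPM in CD103-CD11b+ DCs. The lowest CD103-CD11b+ library was over 5 times the highest CD103+CD11b- library. The log2 fold change was 4.36 ± 0.83 (SE, n = 3 per group; edgeR adjusted p 0.00661), and it was 5.34 without replicate 1 of the CD103+CD11b- libraries. Lta4h also rose, by 0.86 ± 0.21 on the log2 scale (SE, n = 3 per group; edgeR adjusted p 0.0191), but the call was lost in 5 of the 6 fits that left out 1 library and kept without replicate 2 of the CD103-CD11b+ libraries. For Alox5ap the subsets could not be separated, with 37.2 to 70.8 CPM against 51.0 to 65.4 CPM and a log2 fold change of 0.04 ± 0.33 whose sign depended on single libraries.

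Ltc4s fell in WT CD103-CD11b+ DCs, from 13.7, 15.8 and 18.8 CPM to 6.26, 6 and 6.40 CPM. The groups did not overlap and the replicates were tight, with a log2 fold change of -1.37 ± 0.24 (SE, n = 3 per group; edgeR adjusted p 0.00432), and the call was kept in all 6 fits without 1 library. Of the exonic bases of Ltc4s, 26.4% are shared with Gm26542 on the opposite strand, and reads there cannot be assigned by counting without strand. Hpgds and Tbxas1 fell by 0.95 and 0.78 on the log2 scale (SE 0.27 and 0.19, n = 3 per group; edgeR adjusted p 0.0320 and 0.0181). These 2 calls were less stable, since Hpgds kept its call in 2 and Tbxas1 in 4 of the 6 fits without 1 library. Hpgds was also not called in the fit to the 6 libraries of this comparison alone or with the replicate number as a block. With that block, Ptgs2 was called, and so were 16.6% of all genes.

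Ptgs1 was higher in WT CD103-CD11b+ than in WT CD103+CD11b- DCs by 2.64 ± 0.52 on the log2 scale, and by 1.64 without replicate 2 of the CD103-CD11b+ libraries. Ptgs2 was higher on average as well, with no overlap (log2 fold change 1.38 ± 0.58, SE, n = 3 per group; edgeR adjusted p 0.117). Cyp4f18 did not overlap between the subsets either, at 19.4 to 28.4 CPM against 39.8 to 68.1 CPM.

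In Cbfb-cKO mice the subsets were compared in the same way, and the calls and adjusted p values are again not independent support. Relative to CD103+CD11b- DCs, Ptgs2, Ptges, Hpgds and Lta4h were called higher in CD103-CD11b+ DCs and Tbxas1 was called lower, that is 4 and 1 of the 8 genes. Hpgds alone of the 10 genes had a log2 fold change of the opposite sign to that in WT. Of all genes tested, 9.26% were called higher and 6.81% lower. The median log2 fold change was 1.40 for the 8 genes and 0.105 for all genes tested.

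Ptgs2 rose from 35.9, 56.1 and 12.5 CPM to 423, 511 and 1213 CPM between the mutant subsets. This gap of 4.33 ± 0.66 on the log2 scale (SE, n = 3 per group; edgeR adjusted p 0.00115) was 3.72 without replicate 3 of the CD103-CD11b+ libraries, the highest of all. Hpgds rose by 1.77 ± 0.28 (SE, n = 3 per group; edgeR adjusted p 0.00134), whereas in WT it was the CD103+CD11b- subset that had the higher level. Tbxas1 fell by 1.56 on the log2 scale (SE 0.19, n = 3 per group; edgeR adjusted p 0.000287), from 423 to 473 CPM to 110 to 195 CPM. Lta4h rose by 1.03 ± 0.22 (SE, n = 3 per group; edgeR adjusted p 0.00791) and kept its call in all 6 fits without 1 library. It lost the call in the fit to the 6 libraries of this comparison alone. Ptges was called with a log2 fold change of 3.07 ± 0.88 (SE, n = 3 per group; edgeR adjusted p 0.0367), but kept the call only without replicate 3 of the CD103-CD11b+ libraries, and the value was 2.03 without replicate 2 of that group and 3.76 without replicate 2 of the CD103+CD11b- libraries.

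Ptgs1 overlapped between the mutant subsets, at 122 to 201 CPM and 178 to 281 CPM, with a log2 fold change of 0.31 ± 0.45. Alox5 kept the WT order of the subsets without overlap (log2 fold change 2.73 ± 0.86, SE, n = 3 per group; edgeR adjusted p 0.0518), with a range of 2.07 to 3.60 over the fits that left out 1 library. In these mice, deviations of libraries with the same replicate number were correlated (0.112 to 0.354), which the main fit leaves out of account. In an alternative fit with the replicate number as a block, Alox5 was called (log2 fold change 2.84, edgeR adjusted p 0.0124). Ptgs2, Ptges, Hpgds, Lta4h and Tbxas1 were called there as well. Of all genes, 15.5% were called higher and 11.3% lower in that fit. Ltc4s, which separated the subsets in WT, was at 7.32 to 10.2 CPM and 6.06 to 8.33 CPM in the mutant, and these ranges overlapped. Cyp4f18 was higher in CD103-CD11b+ DCs by 5.68 ± 0.52 on the log2 scale, and by 6.79 without replicate 2 of the Cbfb-cKO CD103+CD11b- libraries.

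**Figure D3:**
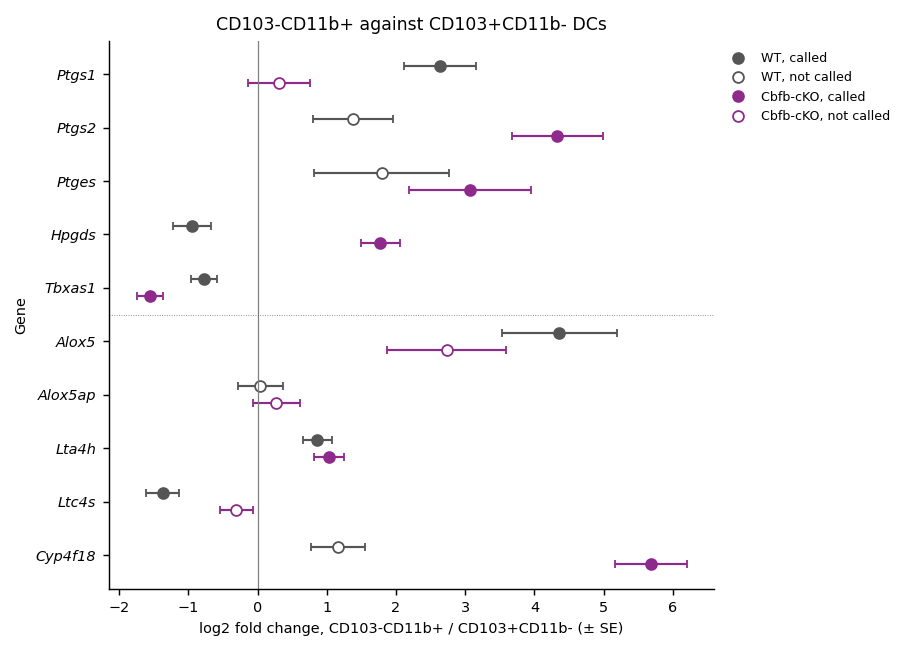
Log2 fold change of CD103-CD11b+ over CD103+CD11b- DCs (x axis, ± SE) of each gene (y axis) in WT (grey) and Cbfb-cKO (purple) mice, with filled points for called genes. Hpgds lies below 0 in WT and above 0 in Cbfb-cKO, whereas Tbxas1 lies below 0 in both.

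Levels were compared between genes per kb of exon. In WT CD103+CD11b- DCs the order began with Alox5ap (40.5 ± 12.6 CPM per kb, SD, n = 3), Ptgs2 (35.0 ± 17.7) and Tbxas1 (24.2 ± 1.32), whose neighbouring ranges overlapped, and ended with Ptgs1 (2.37 ± 0.447), Alox5 (0.732 ± 0.681) and Ptges (0.158 ± 0.149). In Cbfb-cKO CD103+CD11b- DCs, Tbxas1 (49.1 ± 2.81) and Ptgs1 (44.8 ± 11.7) came first with overlapping ranges, and above Alox5ap (16.9 ± 2.10) without overlap. In CD103-CD11b+ DCs, Ptgs2 came first in WT (91.2 ± 46.1) and in Cbfb-cKO (156 ± 94.5), in both cases above the next gene without overlap. That next gene was Alox5ap (41.5 ± 5.18) in WT and Ptgs1 (55.6 ± 14.5) in Cbfb-cKO. With the length of the longest transcript in place of all exons, Tbxas1 was at 48.3 and Alox5ap at 46.0 CPM per kb in WT CD103+CD11b- DCs, so that the order of the leading genes there depended on the length used. In WT CD103-CD11b+ DCs the second place went to Lta4h on that scale, at 58.9 against 47.1 CPM per kb for Alox5ap. In Cbfb-cKO CD103+CD11b- DCs the means lay further apart on that scale, at 97.8 for Tbxas1 and 60.7 CPM per kb for Ptgs1.

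**Figure D4:**
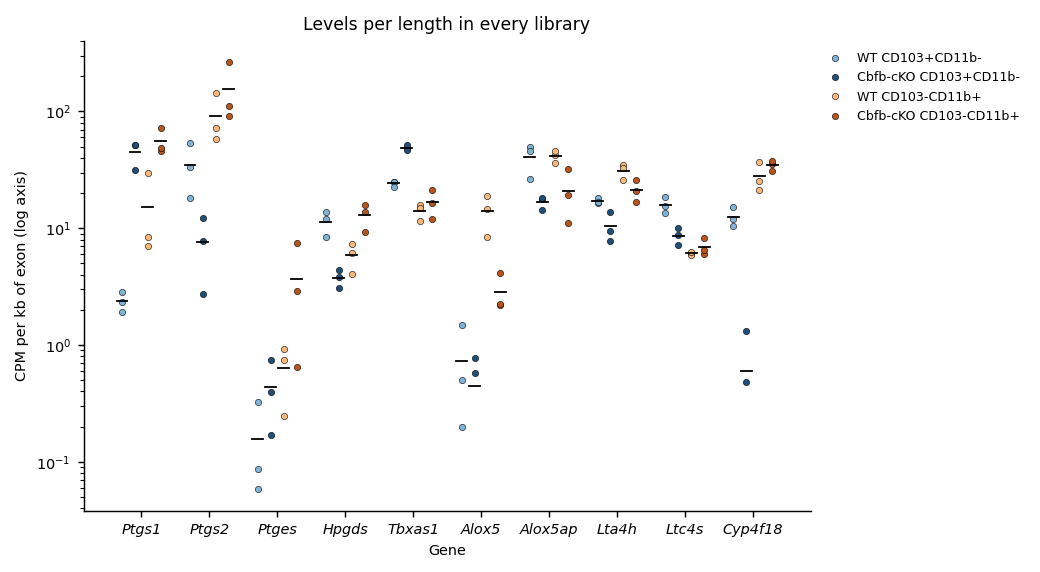
CPM per kb of exon (y axis, log scale) of each gene (x axis) in the 12 libraries, coloured by group, with a bar at the mean of 3 libraries. Points at 0 (Alox5 and Cyp4f18 in 1 mutant library each) cannot be drawn on this axis, and Ptges is the lowest gene in the 3 groups other than Cbfb-cKO CD103-CD11b+ DCs.

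The genes whose log2 CPM followed Ptgs1 most closely over the 12 libraries, among 10683 genes with a mean of at least 10 CPM, were Polg (Pearson r = 0.948), Meg3 (0.922), Xdh (0.921), Rere (0.919) and Polm (0.914). Mean levels of Polg were 32.7 CPM in WT and 116 CPM in Cbfb-cKO CD103+CD11b- DCs, and 59.6 and 88.1 CPM in CD103-CD11b+ DCs. For Alox5 they were Anapc16 (0.955), Foxo4 (0.941), Lgals3bp (0.940), Ccr2 (0.937) and Ids (0.932). The points share their group differences, so these values describe likeness only.

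The rest of the pathway was taken from lists by role, in which 58 genes were found and 46 tested. These lists were also made with earlier results of these data known, so their calls and adjusted p values are not independent support. Between the genotypes, 1 was called in CD103+CD11b- DCs (Cyp4f16, lower) and 1 in CD103-CD11b+ DCs (Ptger3, higher), against 0.797% of all genes called lower in the former and 1.11% called higher in the latter, and the median log2 fold changes were -0.08 and -0.26. Between the subsets, 12 were called higher and 4 lower in CD103-CD11b+ DCs of WT mice, and 8 higher and 4 lower in those of Cbfb-cKO mice. Of all genes tested, 11.8% and 7% were called in WT and 9.26% and 6.81% in Cbfb-cKO, so that 4 of 46 is near the share of all genes. The medians of the listed genes were 0.80 and 0.79, and those of all genes were 0.066 and 0.105. With the replicate block, 25 of the listed genes were called between the subsets of Cbfb-cKO mice, in place of 12, while the block also raised the share of all genes called to 15.5% higher and 11.3% lower. Without 1 library, the number called between the WT subsets ranged from 8 to 17, with 8 to 10 without WT CD103+CD11b- replicate 1 or 2 or WT CD103-CD11b+ replicate 2.

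For the release of arachidonic acid, Pla2g4a, the cytosolic phospholipase A2, was at 10.5 to 17.6 CPM in WT CD103+CD11b- DCs and at 32.0 to 49.3 CPM in WT CD103-CD11b+ DCs, and rose in CD103-CD11b+ DCs of both genotypes by 1.59 ± 0.22 and 3.01 ± 0.24 on the log2 scale (SE, n = 3 per group; edgeR adjusted p 0.00139 and 1.62e-05). Pla2g2d, a secreted phospholipase of DCs and macrophages, had no count in any of the 6 CD103+CD11b- libraries and was at 6.63 to 32.3 CPM in the CD103-CD11b+ libraries. Against a limit of 3 counts over the group, it was at least 102-fold higher in WT and at least 37.5-fold higher in Cbfb-cKO (edgeR adjusted p 0.000505 and 0.000597). Pla2g16 was lower in CD103-CD11b+ DCs of both genotypes, and Mgll in WT (log2 fold change 2.73 ± 0.68) and Pla2g15 in Cbfb-cKO (1.40 ± 0.43) were higher with edgeR adjusted p of 0.0203 and 0.0491.

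Of the other terminal prostanoid synthases, Ptgis, which makes prostacyclin, was at 29.4 to 48.4 CPM in all 6 CD103+CD11b- libraries and at 0.582 CPM or less in all 6 CD103-CD11b+ libraries. In WT the log2 fold change was -6.28 ± 0.45 (SE, n = 3 per group; edgeR adjusted p 1.96e-05). Its genotype effect in CD103+CD11b- DCs was 0.27 ± 0.30 on the log2 scale (SE, n = 3 per group; edgeR adjusted p 0.879). Akr1b3, an aldo-keto reductase, was also lower in CD103-CD11b+ DCs, by smaller log2 fold changes of -0.55 ± 0.16 in WT and -0.66 ± 0.16 in Cbfb-cKO.

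Hpgd, the dehydrogenase that inactivates prostaglandins, was at 2.05 to 3.72 CPM in CD103+CD11b- DCs and at 15.1 to 75.2 CPM in CD103-CD11b+ DCs over both genotypes. It rose by 3.07 ± 0.50 in WT and 4.17 ± 0.53 in Cbfb-cKO on the log2 scale (SE, n = 3 per group; edgeR adjusted p 0.00300 and 0.000348), and the latter ranged from 3.53 to 4.51 when 1 library was left out. The prostaglandin transporter Slco2a1 was at 218, 583 and 399 CPM in WT CD103-CD11b+ DCs, against 8.92 to 56.3 CPM in WT CD103+CD11b- DCs (log2 fold change 3.62 ± 0.79, SE, n = 3 per group; edgeR adjusted p 0.0119). Its ranges overlapped in Cbfb-cKO mice, where it was not called (2.01 ± 0.76, edgeR adjusted p 0.0947). Abcc4, an exporter of prostaglandins, was called higher in WT CD103-CD11b+ DCs with a log2 fold change of 0.70 ± 0.20, and had a value of 0.25 ± 0.20 in Cbfb-cKO.

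The prostaglandin E2 receptors differed in pattern. Ptger3 was at 3.92, 4.33 and 2.04 CPM in WT and at 51.0, 66.9 and 56.1 CPM in Cbfb-cKO CD103-CD11b+ DCs, and at 3.42 CPM or less in CD103+CD11b- DCs of both genotypes. This gap was known when the lists were made and is given with no p; the log2 fold change was 4.07 ± 0.52. Ptger2 was higher in CD103+CD11b- DCs, at 36.8 to 53.9 CPM against 3.57 to 14.3 CPM in CD103-CD11b+ DCs over both genotypes (edgeR adjusted p 0.00775 in WT and 0.000680 in Cbfb-cKO). Ptger4 was at 140 to 498 CPM in all libraries and was called only with the replicate block between the subsets of Cbfb-cKO mice, among these comparisons. Ptger1, at 10.6 to 25.3 CPM, was not called in any of them.

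Among the leukotriene receptors, the leukotriene B4 receptor Ltb4r1 was at 1.29 CPM or less in CD103+CD11b- DCs and at 3.57 to 17.7 CPM in CD103-CD11b+ DCs, and it rose in both genotypes (edgeR adjusted p 0.00961 and 0.0170). Ltb4r2 (0.582 to 2.33 CPM, from 2 to 7 counts) and Gpr17 (9.59 to 45.3 CPM) were called higher in WT CD103-CD11b+ DCs. Cysltr1, a receptor of cysteinyl leukotrienes, was at 55.8 to 142 CPM in all libraries, and Cysltr2 at 2.35 to 29.7 CPM. Neither was called in the 5 comparisons, and both were called between the subsets of Cbfb-cKO mice with the replicate block. The enzyme Ggt5, which acts on leukotriene C4, rose in CD103-CD11b+ DCs by 1.60 ± 0.35 in WT and 3.06 ± 0.39 in Cbfb-cKO on the log2 scale (SE, n = 3 per group; edgeR adjusted p 0.0127 and 0.000365). Mgst3 and the 12-lipoxygenase Alox12 were called higher in WT CD103-CD11b+ DCs with log2 fold changes of 1.90 ± 0.51 and 5.41 ± 1.32. In Cbfb-cKO mice the ranges overlapped and the values were -0.44 ± 0.53 and 3.78 ± 1.29, neither of which was called (edgeR adjusted p 0.608 and 0.0694).

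Cyp4f16, a relative of Cyp4f18, was at 76.3, 64.8 and 43.7 CPM in WT and at 31.1, 24.7 and 24.6 CPM in Cbfb-cKO CD103+CD11b- DCs, and at 111, 74.3 and 64.9 CPM in WT and 161, 152 and 136 CPM in Cbfb-cKO CD103-CD11b+ DCs. It fell in CD103+CD11b- DCs by 1.19 on the log2 scale (SE 0.24, n = 3 per group; edgeR adjusted p 0.0470). The call was kept in 1 of the 6 fits without 1 library, that without replicate 3 of the WT libraries, and was lost with RLE normalization. Its difference between the subsets in Cbfb-cKO, 2.48 ± 0.25 (edgeR adjusted p 6.96e-05), was kept in all 6.

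Several calls between the subsets depended on single libraries. Of 6 fits that left out 1 library each, the call was kept in 5 for Ggt5 and Ltb4r2 (lost without WT CD103+CD11b- replicate 2) and for Slco2a1 in WT (lost without WT CD103+CD11b- replicate 1), and in 4 for Ltb4r1 in Cbfb-cKO (lost without Cbfb-cKO CD103+CD11b- replicate 1 or 3). It was kept in 3 for Mgll and Alox12, each lost without WT CD103+CD11b- replicate 1 or 2 or WT CD103-CD11b+ replicate 2, the library with their highest values. For Abcc4, Mgst3 and Pla2g15 it was kept in 2 and for Gpr17 in 1, and for Akr1b3 in 1 in WT and 3 in Cbfb-cKO. Over these fits the log2 fold change ranged from 4.32 to 6.20 for Alox12, from 1.60 to 2.68 for Mgst3, from 1.95 to 2.96 for Mgll, from 3.03 to 5.11 for Gpr17, from 3.14 to 4.29 for Slco2a1 and from 0.43 to 0.77 for Abcc4.

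**Figure D5:**
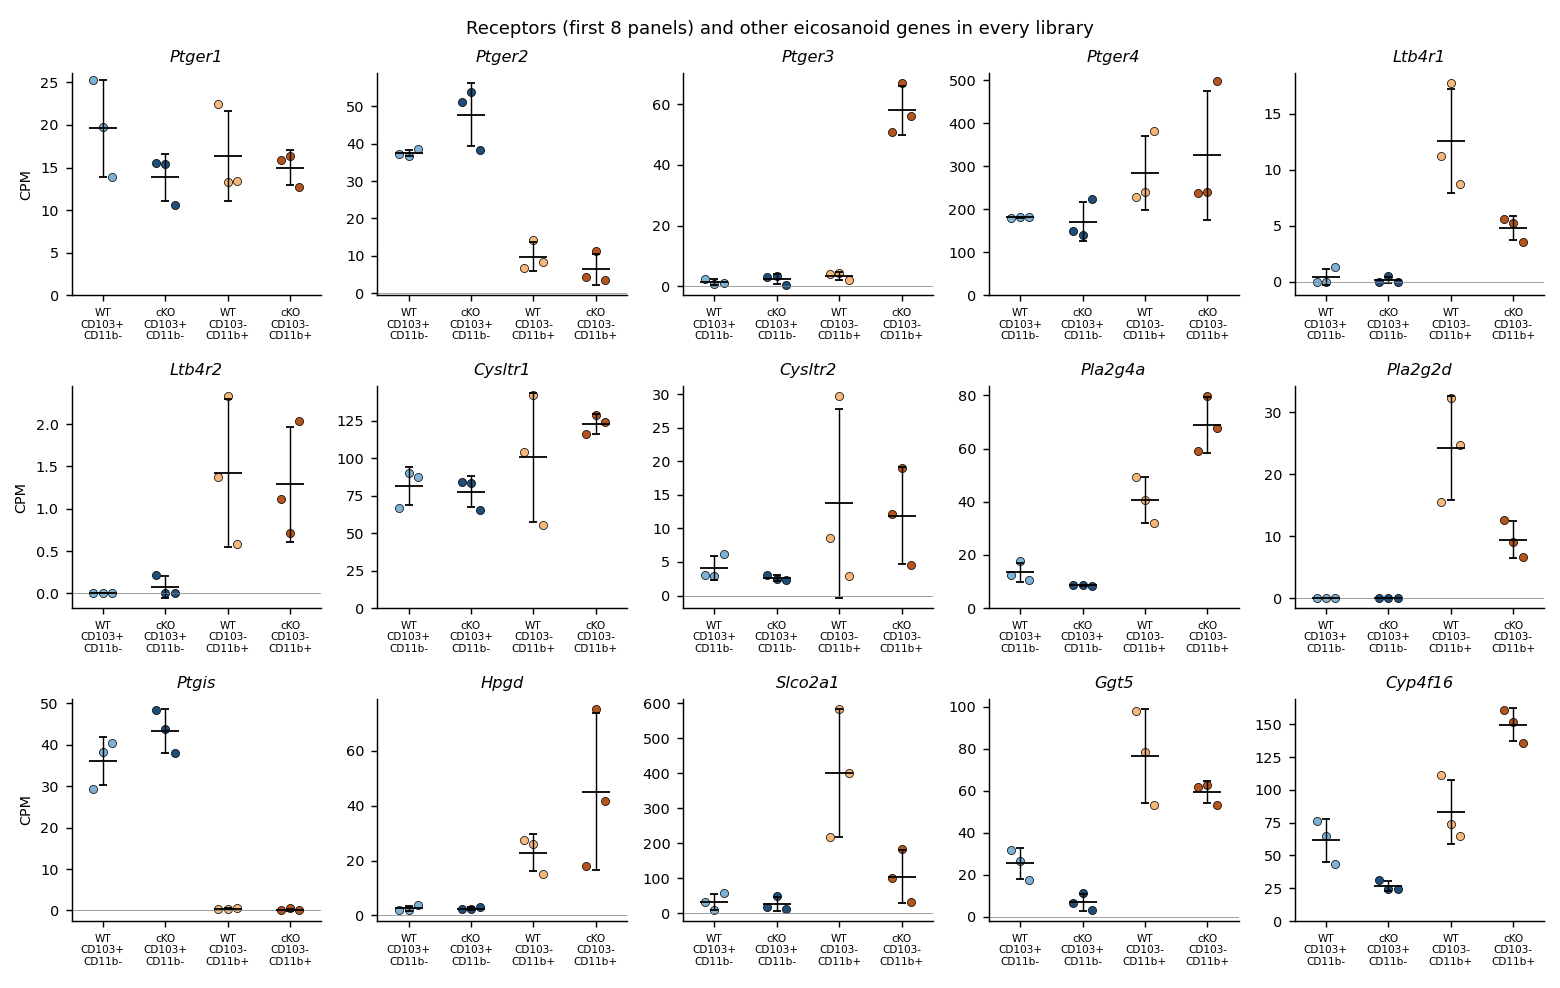
CPM (y axis, linear, different for each panel) of 8 receptors and 7 other genes of the pathway in the 4 groups (x axis), with 1 point per library and the mean ± SD of 3 libraries in black. Ptger3 stands at 51.0 to 66.9 CPM in Cbfb-cKO CD103-CD11b+ DCs only, and Ptgis is near 0 in the 6 CD103-CD11b+ libraries.

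Several of these enzymes are also known from mast cells, neutrophils and tuft cells. The mast cell genes Ms4a2, Tpsb2, Tpsab1, Mcpt4 and Fcer1a had no count in any library, and the neutrophil gene Ly6g had none in CD103+CD11b- DCs. The 11 mast cell genes summed to 3.42 to 14.2 CPM in CD103+CD11b- and 29.6 to 104 CPM in CD103-CD11b+ DCs, through Hdc and Gata2. The tuft cell genes Il25 and Chat had no count in any library, and 9 tuft cell genes summed to 5.82 to 19 CPM in WT CD103-CD11b+ DCs. Between the Cbfb-cKO subsets the tuft cell sums were 12.1 to 16.2 CPM in CD103+CD11b- and 3.06 to 9.99 CPM in CD103-CD11b+ DCs, with Trpm5 and Avil called lower and Dclk1 called higher in the latter. The 10 neutrophil genes summed to 1.56 to 9.76 CPM in CD103+CD11b- and 54.7 to 167 CPM in CD103-CD11b+ DCs. Macrophage genes moved more widely, since 8 of 12 were called higher in CD103-CD11b+ DCs of WT mice (median log2 fold change 3.31) and 7 of 12 in those of Cbfb-cKO mice (3.57), with sums of 374 to 509 CPM in WT CD103+CD11b- and 290 to 400 CPM in Cbfb-cKO CD103+CD11b- DCs. Platelet genes summed to 42.0 to 64.3 CPM in WT CD103+CD11b- and 72.1 to 109 CPM in WT CD103-CD11b+ DCs, with Itgb3 called higher, and in WT 3 of 10 epithelial genes (Krt18, Vil1 and Krt8) were called higher too. In Cbfb-cKO mice, B-cell genes summed to 279 to 309 CPM in CD103+CD11b- and 516 to 975 CPM in CD103-CD11b+ DCs, with 5 of 10 called higher, and the eosinophil genes Il5ra and Prg2 were called higher. By the gate that the study gives for gut DCs, CD64+ macrophages and CD45- epithelial and tuft cells would be left out, but the sources do not repeat this gate for the sort of the RNA-seq. Fcgr1, which encodes CD64, was at 0.488 CPM or less in CD103+CD11b- and at 4.94 to 11.7 CPM in CD103-CD11b+ DCs over both genotypes. The monocyte genes F13a1 and Ccr2 were called higher in CD103-CD11b+ DCs of both genotypes, and Ly6c2 was called lower in WT. Of 8 type 2 DC genes, 3 were called higher in WT and 6 in Cbfb-cKO. The 8 T-cell genes summed to 198 to 308 CPM in CD103+CD11b- and 37.2 to 164 CPM in CD103-CD11b+ DCs of WT mice. In Cbfb-cKO mice these sums were 249 to 266 and 45.9 to 210 CPM. The part of these cell types in the level of Tbxas1 and in the higher levels of Alox5, Ptgs1, Alox12, Pla2g2d, Hpgd and Slco2a1 in CD103-CD11b+ DCs was not tested.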

How the data were processed

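The authors sorted DCs, made RNA-seq libraries by a RamDA-seq protocol scaled up for bulk input, trimmed the reads with Trim Galore, mapped them with STAR 2.7 to mm10 (per the submitters' processing notes), removed duplicates and reads of low mapping quality, and counted reads per gene with HTSeq. They deposited raw counts, 1 file per library, without normalization. PCR duplicates were removed by position. The limit of 3 counts over a group covers counting error only, whereas the SE of a log2 fold change also holds the spread between libraries.

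Symbols and exons were taken from GENCODE M21. A gene was kept if any library held at least 5 counts, and was tested with edgeR 4.0.16 (limma 3.58.1, R 4.3.3): TMM scaling, 1 quasi-likelihood model of the 4 groups, and Benjamini-Hochberg adjustment over all 20580 genes. The SE is the log2 fold change divided by the square root of F. All replicate pairs differed by more than sampling noise. Samples of a group came from different mice. Nothing says what the replicate numbers share, and the main fit did not use them as pairs. Deviations of same-numbered libraries of the Cbfb-cKO subsets were correlated (0.112 to 0.354), and values with a replicate block are given there as an alternative. The genes and lists were chosen with earlier results of these data known. Named genes were the 10 enzymes, the listed pathway genes that were called, fixed receptors, and the 5 closest patterns to Ptgs1 and to Alox5. Of the 181 listed genes, 180 were matched. The procedure was tested on simulated data. Alternatives were RLE scaling, 3 other count filters, DESeq2 1.42.0, an FDR of 0.01, a replicate block, fits to 6 libraries and leaving out each library. Tables and plots used Python 3.11.15, pandas 2.3.3 and matplotlib 3.10.9.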

Additional observations from a re-analysis of the deposited data

Results flagged for a closer look

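Differences between the subsets in the gap between Cbfb-cKO and WT drew attention for 3 genes of the pathway. For Hpgds the log2 fold change of Cbfb-cKO over WT was 2.72 higher in CD103-CD11b+ than in CD103+CD11b- DCs, with opposite signs in the 2 subsets. For Cyp4f18 the difference was 4.53, with log2 fold changes of 0.31 in CD103-CD11b+ and -4.21 in CD103+CD11b- DCs. Since Hpgds and Cyp4f18 were listed with results of these libraries known, these 2 differences are descriptions and not tests. For Cyp4f16, which is not one of the 10 enzymes, the difference was 2.03 ± 0.33 (SE, 12 libraries; edgeR adjusted p 0.0269), and the call was kept in 3 of 12 fits that left out 1 library.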

How the results depend on the processing

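With 3 libraries per group, leaving out 1 library at a time changed the number of the 10 enzymes called, which was 4 and became 2 to 3 for the genotypes in CD103+CD11b- DCs, was 0 and became 0 to 1 in CD103-CD11b+ DCs (1 without WT replicate 2), was 2 and became 0 to 2 for the difference between the subsets (0 without Cbfb-cKO CD103+CD11b- replicate 1), was 6 and became 3 to 5 for the subsets in WT (3 without WT CD103+CD11b- replicate 1 or 2) and was 6 and became 5 to 6 in Cbfb-cKO. Not counting Ptgs1 and Cyp4f18, the last 2 were 5 and became 2 to 4, and 5 and became 4 to 5. For the other pathway genes the ranges were 0 to 2, 1 to 2, 0 to 1, 8 to 17 and 10 to 17. An FDR of 0.01 left 2 enzymes in CD103+CD11b- DCs, 0 for the difference and 3 for the subsets in WT. The share of all genes called was not computed for this limit, the fits without 1 library, RLE scaling, the other filters or the difference with DESeq2. Nothing is read from the counts of calls in those fits. With 5 counts in every library, 11765 genes were tested, of which 7 were enzymes, and 2 enzymes were called between the genotypes in CD103-CD11b+ DCs (2 also with no filter, 3 with DESeq2) and 1 for the difference (4 with DESeq2); of the other genes 2, 0 and 9 were called in CD103+CD11b- DCs, in CD103-CD11b+ DCs and between the WT subsets, where low genes were no longer tested. In CD103+CD11b- DCs, RLE scaling left 0 and filterByExpr gave 2 of these other genes. The cause of the other changes was not tested. Log2 fold changes whose sign turned when 1 library was left out ranged from -1.50 to 0.35 (Alox5, genotypes in CD103+CD11b- DCs), -0.25 to 0.22 and -0.16 to 0.55 (Alox5ap, subsets in WT and Cbfb-cKO), and -0.20 to 0.55 and -0.01 to 0.42 (Alox5ap and Lta4h, difference between subsets); none of these was called. Of the values per kb of exon, 21 moved by more than 1 SD with the longest transcript.

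The labels do not say what the replicate numbers share. The correlation of deviations between libraries with the same number ranged from -0.085 to 0.357 within a genotype and from -0.091 to 0.422 within a subset. Of the groups that share a genotype or a subset, only the Cbfb-cKO subsets had all 3 pairs over 0.1 (0.112, 0.321 and 0.354). WT CD103-CD11b+ and Cbfb-cKO CD103+CD11b- DCs, which share neither, also had all 3 over 0.1 (0.124, 0.217 and 0.167). These correlations do not establish a pairing. The main fit used no pairs, and the fits with a replicate block are alternatives. With the replicate block, 5, 1, 2, 7 and 7 enzymes were called in the 5 comparisons in the order above (against 2.54%, 4.13%, 1.6%, 16.6% and 26.8% of all genes), and 3, 3 and 2 other genes in the first 3, and 25 between the subsets in Cbfb-cKO. These block fits and the fits without 1 library for the other genes were chosen after seeing the data. Depth limits Ptges (1 to 12 counts in 10 libraries), Alox5 in CD103+CD11b- DCs (0 to 18) and Cyp4f18 in mutant CD103+CD11b- DCs (0 to 10).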
